A study of Mus musculus with 6 samples.

Results

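Mast cells and basophils made up 126 of the 50850 cells kept from droplet RNA sequencing of mouse back skin. A unique molecular identifier (UMI) marks 1 captured molecule of RNA. Cells were selected on gene levels. A cell was taken when it held at least 5 UMIs summed over the protease genes Cpa3, Mcpt4, Cma1, Tpsb2 and Mcpt8. It also had to hold under 20 UMIs of the keratins Krt5 and Krt14 and under 10 of the collagens Col1a2 and Col3a1, both per 10000 UMIs. Cells with more UMIs of Mcpt4, Cma1 and Tpsb2 than of Mcpt8 were called mast cells (82 cells), and the other 44 were called basophils. These 9 genes chose the cells, so their levels are a description. The fits across all genes hold them too, and they are named as genes of the rule where they count among the calls, with nothing read from it.

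All 6 libraries came from female C57BL/6J mice 8 to 10 weeks old, with 2 libraries in each group. The Sham group had no treatment. For the IMQ group, 5% imiquimod cream was put on the shaved back at 62.5 mg a day for 4 days, which induces a psoriasis-like inflammation. The IMQ+SHP099 group had the same cream and was also gavaged with the SHP2 inhibitor SHP099 at 10 mg/kg a day for 4 days. The labels call these days additional and do not say whether they ran beside or after the cream. From the labels alone, the inhibitor and the time since the cream cannot be told apart. SHP2 is a tyrosine phosphatase, and SHP099 holds it closed by binding away from its active site. Each library pooled unsorted skin cells of several mice, so the p-values below measure the spread between libraries and not between single mice. IMQ against Sham asks what the cream changed in these cells, and IMQ+SHP099 against IMQ asks how these cells differed once SHP2 was inhibited as well.

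Mast cells live in the dermis around vessels and nerves and store proteases, histamine and serotonin in granules. They depend on the receptor tyrosine kinase Kit, and they release their granules when the IgE receptor is cross-linked or when Mrgprb2 senses basic peptides. Basophils mature in bone marrow, enter inflamed skin from blood and are a source of IL-4. Both cells carry the IgE receptor and make histamine with the enzyme Hdc, but they store different proteases.

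The 5 protease genes of the selection lie at 3 places in the genome (coordinates of GRCm38, GENCODE vM21). Cpa3, carboxypeptidase A3, is on chromosome 3 from 20215620 to 20242181. The chymase cluster on chromosome 14 runs from Cma1 (55941451 to 55944675) over Mcpt4 (56059629 to 56062313) to Mcpt8 (56082166 to 56085273), and the ends of Mcpt4 and Mcpt8 lie 19.9 kb apart. The tryptase cluster on chromosome 17 runs from Prss34 (25298394 to 25300165) over Tpsab1 to Tpsb2 (25366305 to 25369098) and Tpsg1.

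The 120 bases before the start of 6 genes are shown because these genes mark mast cells, basophils or both in these data and all hold the letters that GATA factors are known to bind. Gata2, a factor that both lineages need, had a UMI in 52 of 82 mast cells and 37 of 44 basophils. The sequences are from RefSeq (GRCm38.p6) and are written 5′ to 3′ on the strand of the gene, with AGATAA or TGATAA in capitals, or the reverse complement of these letters where the match is on the other strand. Cpa3 and Ms4a2, the beta chain of the IgE receptor, were detected in both classes. Mcpt4 and the receptor Mrgprb2 had no UMI in basophils, and Prss34 and Cd200r3 had a higher level in basophils.
Cpa3, chr3:20242182-20242301, minus strand: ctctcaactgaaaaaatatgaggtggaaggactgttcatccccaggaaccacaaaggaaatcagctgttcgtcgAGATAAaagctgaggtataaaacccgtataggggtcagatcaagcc
Ms4a2, chr19:11623720-11623839, minus strand: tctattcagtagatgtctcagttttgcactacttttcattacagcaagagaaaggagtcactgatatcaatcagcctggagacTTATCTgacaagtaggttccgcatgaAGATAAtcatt
Mcpt4, chr14:56062311-56062430, minus strand: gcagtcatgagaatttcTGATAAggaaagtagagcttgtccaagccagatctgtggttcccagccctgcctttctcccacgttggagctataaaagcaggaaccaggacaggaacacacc
Mrgprb2, chr7:48558087-48558206, minus strand: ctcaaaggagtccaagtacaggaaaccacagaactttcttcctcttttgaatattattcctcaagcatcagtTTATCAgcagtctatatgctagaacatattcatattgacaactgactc
Prss34, chr17:25298274-25298393, plus strand: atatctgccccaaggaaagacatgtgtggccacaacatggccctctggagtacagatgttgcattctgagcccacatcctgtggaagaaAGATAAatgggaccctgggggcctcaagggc
Cd200r3, chr16:44943558-44943677, plus strand: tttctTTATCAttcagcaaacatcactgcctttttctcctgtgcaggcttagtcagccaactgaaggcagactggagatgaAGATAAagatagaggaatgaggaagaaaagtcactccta

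A match on either strand was held by 2506 of 32851 promoters of this length (7.63%) and by 7 of the 19 defining and marker genes found in the table, of 22 listed. A listed gene counted when any of its promoters held a match, so the count of genes and the share of promoters are in unlike units. Beside the 6 genes shown, the 7th was Fcer1a, the alpha chain of the IgE receptor. A match describes the letters only and is no evidence of binding. The defining genes were listed with earlier results of these data known.

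Genes that the selection did not use separated the classes too, given here as a description. Kit had a UMI in 66 of 82 mast cells (80.5%) and in 0 of 44 basophils, which allows a share of cells with a UMI of up to 6.82% and does not bound the share of cells that express the gene. Cd200r3, an activating receptor of basophils, had a UMI in 41 of 44 basophils and 40 of 82 mast cells, and Hdc in 44 of 44 and 69 of 82. At least 1 UMI of Kit, Ms4a2, Fcer1a or Cd200r3 was found in 44 of 44 basophils and 73 of 82 mast cells. In the cells not selected, which had median depths of 5648 to 18279 UMIs in the libraries, Kit had a UMI in 0.772% to 2.55% and Ms4a2 in 0.0115% to 0.0975%. The selected mast cells had a median depth of 1625.5 UMIs, and 27 of them held under 1000. The selected basophils had a median of 3595.5 UMIs, and 0 of the 44 held under 1000. Of 5 listed markers of T and NK cells, Cd3d, Cd3e, Cd3g and Trdc had no UMI in either class. The fifth, Nkg7, had 33 and 34 UMIs in the mast cells of IMQ replicate 1 and IMQ+SHP099 replicate 2, and 9 and 17 in the basophils of the IMQ libraries. Of 5 macrophage and monocyte markers, C1qa, C1qb and Csf1r had none, and the others summed to 2 to 12 UMIs in the basophils of each library and to 2 in the mast cells, all in Sham replicate 2.

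A few selected cells stood apart. The 3 mast cells with no marker but Cma1 (5 UMIs each) held 92 to 147 UMIs of the granzyme Gzma and 98 to 150 of the chemokine Ccl5, and none of Hdc, Kit, Ms4a2, Fcer1a or Cd200r3. Of these, 1 was in IMQ replicate 1 and 2 were in IMQ+SHP099 replicate 2. Another 3 mast cells, all in Sham replicate 1, held markers of other skin cells at 112, 531 and 809 UMIs per 10000, among them 9, 245 and 64 UMIs of the keratin Krt10. Markers of other cell types were also at 117 and 51.5 in mast cells of IMQ replicate 1 that did not hold Cma1 alone. In 1 basophil of IMQ replicate 2 they were at 103, and in 1 of IMQ+SHP099 replicate 2 at 76.9. Doublets were not removed, and their part in these cells was not tested. The 3 basophils of Sham replicate 2 held 17 UMIs of Cpa3 and 3 of Mcpt8, and 1 of them held Cpa3 alone. At the threshold itself, 4 selected cells held exactly 5 marker UMIs, of which 15 of 20 were Cma1. Just outside it, 8 cells with 4 marker UMIs met the other limits, with 20 UMIs of Cma1 and 9 of Mcpt8.

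The libraries held 53913865 to 188283327 UMIs, and the median depth of a kept cell ran from 5645 UMIs in IMQ+SHP099 replicate 2 to 18263.5 in IMQ+SHP099 replicate 1. Any pair of libraries shared 12 to 30 cell barcodes. In the 6 libraries together 162 cells reached 5 marker UMIs, of which the keratin limit removed 17 and the collagen limit 19. In IMQ+SHP099 replicate 1 the keratin limit removed 8 of 12, and in IMQ replicate 2 the collagen limit removed 7 of 31.

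Selected basophils were scarce in untreated skin, were found in both IMQ libraries and were again fewer in both IMQ+SHP099 libraries. Their share of the kept cells was 0% and 0.0364% in Sham replicates 1 and 2, where the 0 of 8584 cells allows a share of up to 0.0349%. It was 0.274% (95% Clopper-Pearson interval 0.170 to 0.418) and 0.126% (0.0673 to 0.216) in the IMQ replicates, and 0.0230% and 0.0677% in the IMQ+SHP099 replicates. The IMQ libraries lay above the libraries of both other groups without overlap. In IMQ+SHP099 replicate 1 the keratin limit had removed 8 of the 12 cells with at least 5 marker UMIs. These were not split by class, and the part of this limit in the shares was not tested. The mean share was 0.200% ± 0.104 in IMQ, 0.0182% ± 0.0258 in Sham and 0.0454% ± 0.0316 in IMQ+SHP099 (SD, n = 2 libraries each). The differences were 0.182 points for IMQ minus Sham and -0.155 points for IMQ+SHP099 minus IMQ. Both had p = 0.33 in the exact permutation test (two-sided), the smallest that 2 libraries against 2 allow.

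Depth did not turn this order. When each cell was thinned to 2000 UMIs, no basophil remained in the Sham libraries. The IMQ libraries kept 17 and 12 and those of IMQ+SHP099 kept 0 and 1. Cells shallower than 2000 UMIs were left out of this count, 622 to 866 in each library, among them 2 basophils in IMQ and 4 in IMQ+SHP099. Intervals cover counting error only.

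The share of mast cells differed more within groups than between IMQ and Sham. It was 0.151% (95% Clopper-Pearson interval 0.0807 to 0.259) and 0.279% (0.177 to 0.419) in Sham, and 0.352% (0.232 to 0.512) and 0.0972% (0.0466 to 0.179) in IMQ. In IMQ+SHP099 it was 0.0230% (0.00279 to 0.0831) and 0.0948% (0.0381 to 0.195). The IMQ libraries lay on either side of both Sham libraries. In IMQ replicate 2 the collagen limit had removed 7 of the 31 cells with at least 5 marker UMIs. The cells not selected there held 3154 UMIs of the 5 marker genes, against 139 to 440 in the other libraries. The part of the limits in these shares was not tested. The difference of IMQ minus Sham was 0.00910 points (exact two-sided permutation p = 1), smaller than the SD of either group (0.180 and 0.0905 points). This difference changed sign when keratinocytes were left out of the denominator (-0.0718 points). IMQ+SHP099 minus IMQ was -0.166 points (exact two-sided permutation p = 0.33). Both of its libraries lay below both IMQ libraries, but 0.0948% and 0.0972% have overlapping intervals.

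The number of mast cells of 1 library against its basophils gives a ratio without keratinocytes in its denominator. The keratin and collagen limits still removed cells before it was formed, and their part in the ratio was not tested. Of the selected cells, basophils made up 0% and 11.5% in the Sham replicates. They made up 43.75% and 56.5% under IMQ, and with SHP099 50% and 41.7%. IMQ lay 44.4 points above Sham (exact two-sided permutation p = 0.33). IMQ+SHP099 lay 4.30 points below IMQ (exact two-sided permutation p = 0.667), a difference within the spread of the libraries. The lower share of basophils in IMQ+SHP099 thus went with a lower share of mast cells in the same libraries.

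**Figure D1:**
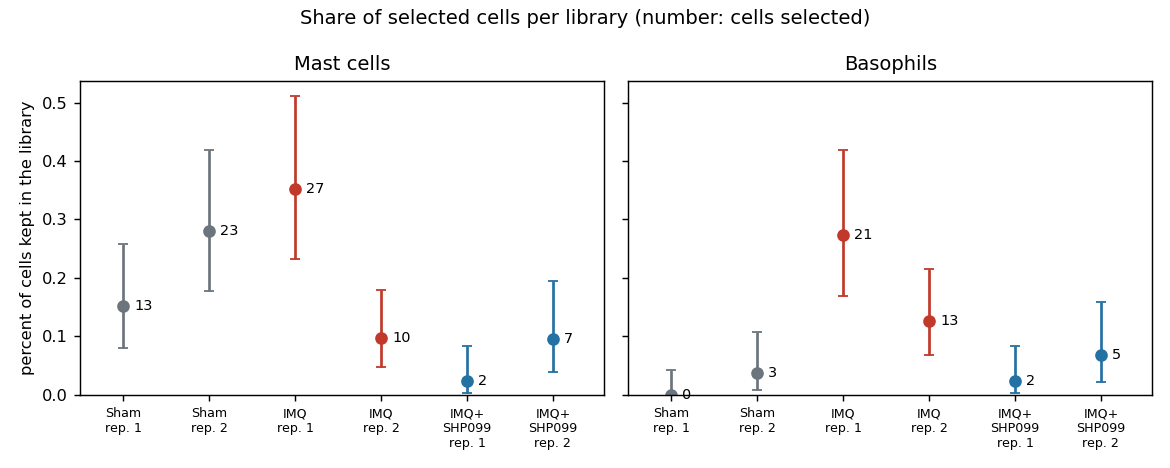
Percent of kept cells selected as mast cells (left) and basophils (right) in each of the 6 libraries, with exact 95% Clopper-Pearson intervals as bars and the number of selected cells beside each point. For basophils both IMQ libraries (0.274% and 0.126%) sit above the 4 other libraries, while for mast cells the IMQ libraries (0.352% and 0.0972%) enclose the Sham libraries.

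Levels are given below as UMIs per 10000 UMIs of the summed cells of a library, with no other scaling. The proteases split the classes by single genes of each cluster. Cma1, Mcpt4 and Tpsb2 reached 282, 423 and 135 UMIs per 10000 in the summed mast cells and had no UMI in basophils, which the rule in part required. Mcpt8 was at 81.7 in basophils and 0.161 in mast cells. Cpa3 was at 207 in mast cells and 4.46 in basophils. Prss34, a tryptase of basophils that the rule did not use, was at 12.8 in basophils, in 13 of 44 cells, and at 0.107 in mast cells. Tpsab1 was at 8.87 and Tpsg1 at 4.08 in mast cells, and both had no UMI in basophils. Tpsab1 and Tpsb2 are near-identical, so the split of reads between them is uncertain. The proteases of mucosal mast cells, Mcpt1 and Mcpt2, were at 0 and 2 UMIs in all 82 mast cells. Cpa3, Mcpt4, Cma1, Tpsb2, Tpsab1, Mcpt8 and Prss34 together gave a median of 8.41% of a mast cell's UMIs and 0.71% of a basophil's.

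The chains of the IgE receptor were found in both classes. Fcer1g, its signalling gamma chain, had a UMI in 77 of 82 mast cells and 42 of 44 basophils. Fcer1a had a UMI in 22 of 82 mast cells, 16 of them in IMQ replicate 1, and in 27 of 44 basophils, and Ms4a2 in 50 of 82 and 26 of 44. The receptors Mrgprb1 and Mrgprb2 were found in 70 and 43 of the mast cells and in 0 basophils. Of the amine genes, Slc6a4, the serotonin transporter, had a UMI in 56 mast cells and Tph1, the enzyme of serotonin synthesis, in 29. Ptpn11, which encodes SHP2, had 1 UMI each in 4 of 82 mast cells and 2 of 44 basophils. Tlr7, the receptor for imiquimod, had a UMI in 0 of 82 mast cells and 0 of 44 basophils, which at these depths limits the cells with a captured UMI (to 3.66% and 6.82%) and not the cells that express it.

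**Figure D2:**
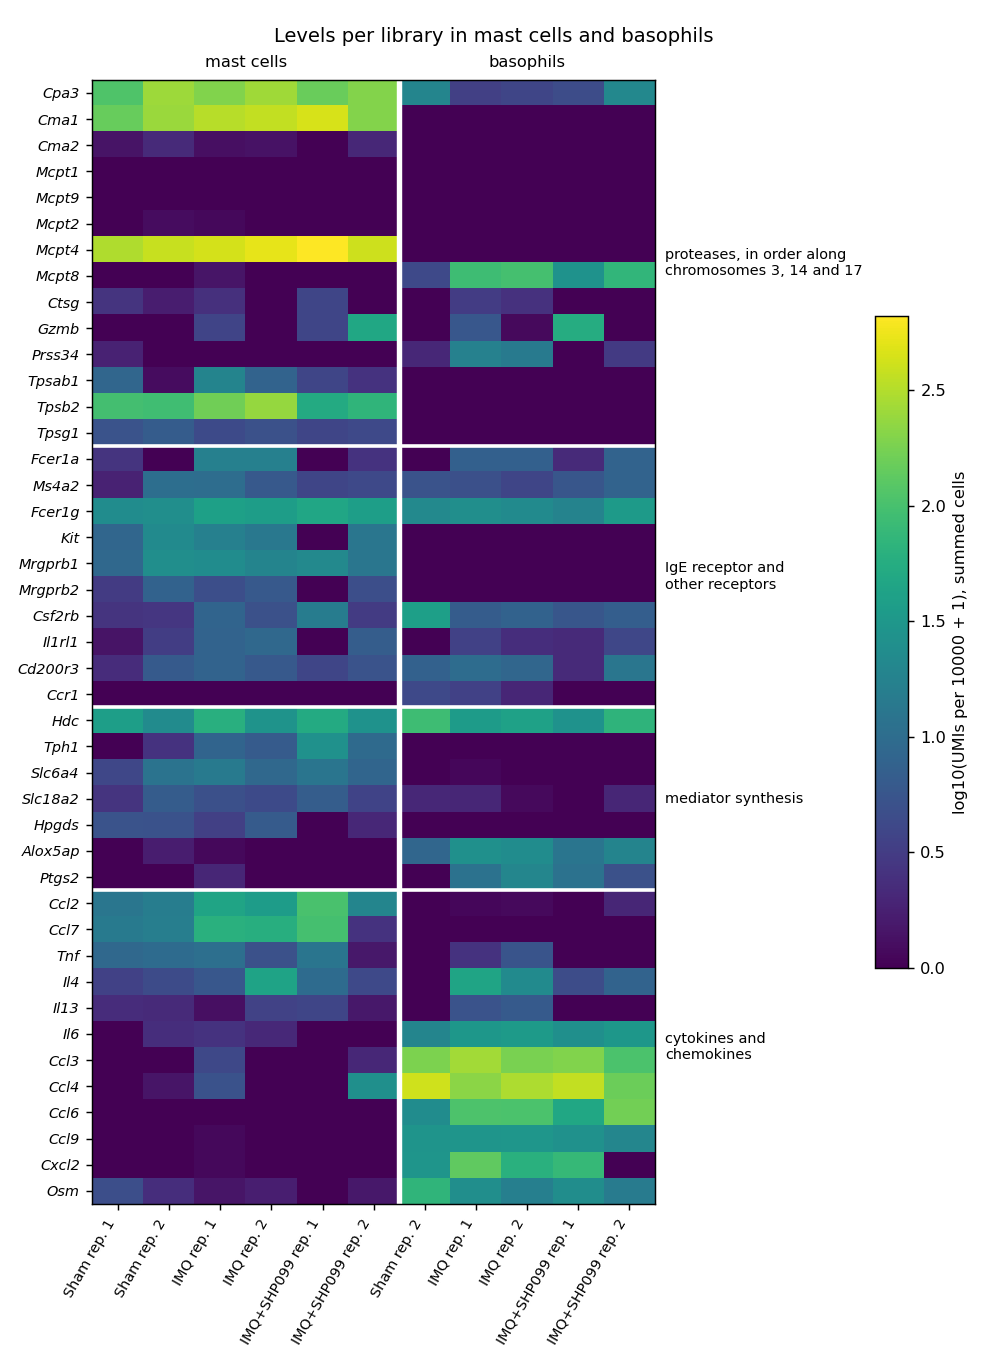
Levels of 43 genes of proteases, receptors, mediator synthesis and cytokines (rows) in each library (columns), as colour on the scale log10(UMIs per 10000 + 1) of the summed cells; Sham replicate 1 had no basophil. Mcpt4 and Tpsb2 have UMIs in mast cells of every library and in no basophil, and Ccl6 is at 22.6 to 168 in the basophils drawn.

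Mast cells and basophils of the same libraries were set side by side in IMQ replicates 1 and 2 and IMQ+SHP099 replicate 2, which held at least 5 cells of each. Because the classes were cut by gene levels, this is a description with no test. Of 862 genes that reached 200 CPM (counts per 1e6 UMIs) in either class, 261 were higher in mast cells and 237 higher in basophils in all 3 libraries. The genes named are those with the greatest ratio, besides the genes of the rule.

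Mast cells carried the monocyte chemokines. Ccl7 was at 60.5, 57.8 and 1.59 UMIs per 10000 in the mast cells of these 3 libraries and at 0 in their basophils, at least 263-fold higher over the sums. Ccl2 was at 43.5, 35.1 and 18.0 in mast cells and at 0.114, 0.169 and 0.998 in basophils. Both genes lie side by side on chromosome 11 (82035571 to 82037453 for Ccl2 and 82045712 to 82047525 for Ccl7). Kit was at least 75.0-fold higher in mast cells, Mrgprb1 at least 104-fold, Tph1 at least 36.4-fold and Basp1, a protein of the inner cell membrane, at least 78.6-fold, each against a limit of 3 UMIs over the summed basophils. Ly6a, the surface protein Sca-1, was at 64.1, 31.8 and 43.5 in mast cells with 2 UMIs in all basophils of these libraries. Ctla2a, a protease inhibitor, Mt1, a metallothionein, Slc6a4, Vwa5a, Gm13889, Slc29a1, a nucleoside transporter, Gnai1, a G protein subunit, and Tpsab1 completed the mast cell side. Gm13889 stood at 16.7 in IMQ replicate 1 but only 0.732 and 0.531 in the other libraries.

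Basophils carried a different set of chemokines from the same chromosome. Ccl6 was at 108, 105 and 168 UMIs per 10000 in the basophils of the 3 libraries and at 0 in the mast cells, at least 426-fold higher. Ccl3 was at 269, 177 and 104 and Ccl4 at 214, 294 and 153, against 0 to 24.4 in mast cells. Ccl9 was at 28.5, 29.1 and 19.0. Ccl9, Ccl6, Ccl3 and Ccl4 lie within chromosome 11 from 83572919 to 83664683.

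Ifitm1, an interferon-induced membrane protein, was at 150, 104 and 152. Slpi, a protease inhibitor, was at 32.8, 64.5 and 36.9 and at 0 in mast cells, at least 173-fold higher. Alox5ap, which hands substrate to the leukotriene enzyme, was at 25.0, 22.7 and 18.0. The cytokines Osm and Lif of the IL-6 family, Acod1, the enzyme that makes itaconate, the tetraspanin Cd9, Prss34, Napsa, Ly6c2 and Cyp4f18 were the rest of this side. Ly6c2 was uneven, at 3.30, 20.8 and 3.99. Il6, which the ratio did not name, had a UMI in 41 of 44 basophils and 9 of 82 mast cells.

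**Figure D3:**
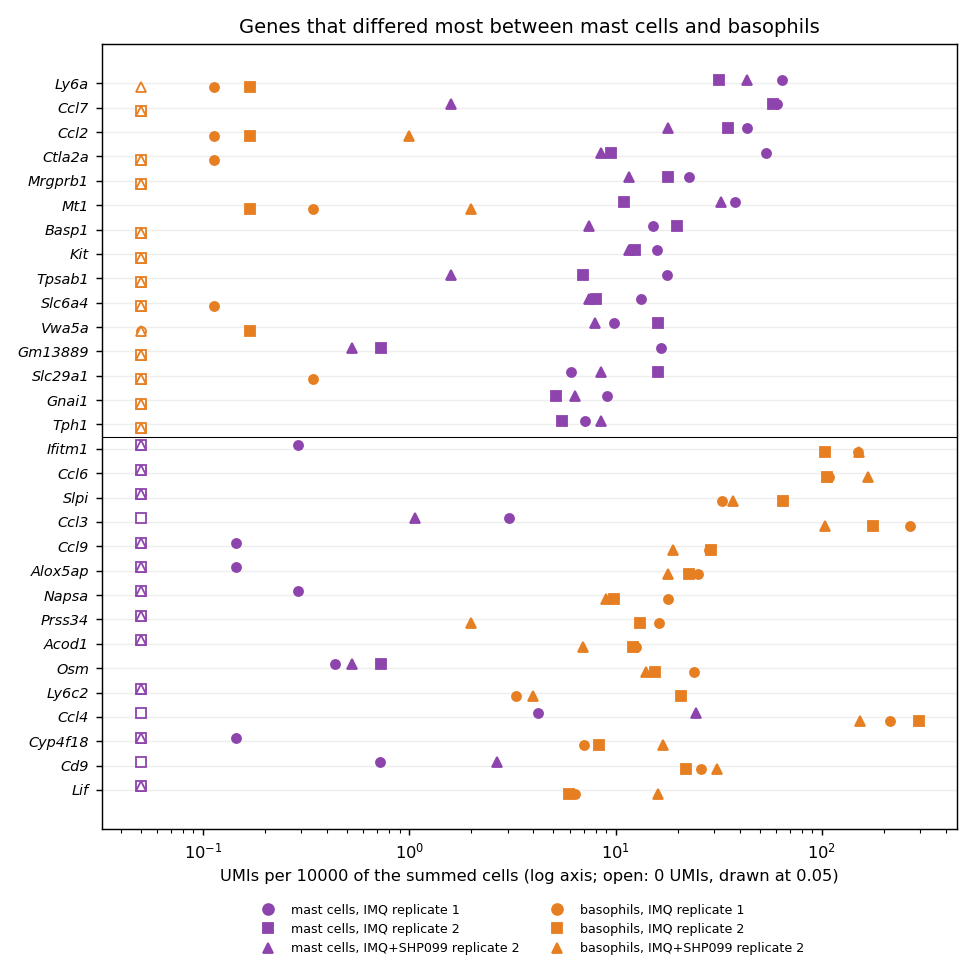
UMIs per 10000 on a log axis for the 15 genes with the greatest ratio on each side, in mast cells (purple) and basophils (orange) of the 3 libraries that held at least 5 cells of each; open symbols at 0.05 stand for 0 UMIs. Ccl7 of the IMQ+SHP099 library (1.59) sits far left of the IMQ libraries (60.5 and 57.8).

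For mast cells in IMQ against Sham, the 4 libraries held 13, 23, 27 and 10 cells, and 698 genes were tested with edgeR's quasi-likelihood test on the summed counts. No gene passed an adjusted p of 0.05 (0% of genes tested in either direction). At an unadjusted p of 0.05 edgeR gave 67 genes, 39 higher (5.59% of those tested) and 28 lower (4.01%), and DESeq2 called 3 genes. The IMQ libraries lay above both Sham libraries for 18.2% of the 698 genes and below both for 20.5%. Leaving out 1 library gave 0 to 90 calls, with 90 without Sham replicate 2. The values below are therefore those of genes that did not pass, named by the size of the difference or from the gene lists.

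The 3 genes that DESeq2 called were Ccl7, Ly6a and Ctla2a, all higher in IMQ. Ccl7 was at 13.1 and 15.3 UMIs per 10000 in Sham and at 60.5 and 57.8 in IMQ, with a log2 fold change of 2.03 ± 0.46 (SE) and an adjusted p of 0.43 in edgeR. It was spread over cells, with a UMI in 22 of 27 and 7 of 10 IMQ mast cells and 6 of 13 and 14 of 23 Sham mast cells. Its neighbour Ccl2 was at 11.8 and 14.6 in Sham and 43.5 and 35.1 in IMQ (1.55 ± 0.48). Ly6a was at 2.96 and 6.40 in Sham and 64.1 and 31.8 in IMQ (3.34 ± 0.63), and had a UMI in 27 of 27 and 9 of 10 IMQ cells. For each of these genes the groups did not overlap, which for Ly6a was also a condition of the rule for named genes. Ctla2a was at 1.27 and 0.914 in Sham and 53.6 and 9.51 in IMQ (4.88 ± 1.02), but 157 of 370 and 20 of 26 UMIs of the IMQ libraries came from 1 cell each.

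Among the other genes with the greatest positive values were Lxn, an inhibitor of carboxypeptidases, Pla2g7, which degrades platelet-activating factor, the amino acid transporter Slc7a8, Tmem158, Ubxn1 and the ubiquitin-like Isg15. Lxn had no UMI in either Sham library and was at 4.78 and 2.20 in IMQ, with a UMI in 15 of 27 and 2 of 10 cells. Slc7a8 was at 0.423 and 0.457 in Sham and 6.52 and 4.39 in IMQ. For Tmem158 the levels were 0.423 and 0.914 against 7.68 and 3.66. That the groups did not overlap was a condition for naming these 3 genes. Isg15 was at 0 and 0.228 in Sham and 7.10 and 1.83 in IMQ, where 1 cell gave 36 of 49 UMIs in replicate 1 and 1 cell all 5 in replicate 2. Fcer1a and Il4 rested on single cells in IMQ replicate 2. Fcer1a was at 1.69 and 0 in Sham and 16.1 and 16.1 in IMQ, but 42 of the 44 UMIs of IMQ replicate 2 were in 1 cell, while 16 of 27 cells had it in replicate 1. Il4 was at 2.54 and 3.43 in Sham and 4.78 and 42.8 in IMQ, and 109 of the 117 UMIs of replicate 2 were in 1 cell.

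Of 14 listed growth factor and cytokine receptors, 5 were tested and none passed after adjustment. At an unadjusted p of 0.05, 4 were higher, against 5.59% of all genes tested, and 2 of the 4 are near-identical copies. The median log2 fold change was 2.17, against -0.12 over all genes. Il1rl1, the receptor for IL-33, was at 0.423 and 2.28 UMIs per 10000 in Sham and 6.96 and 8.05 in IMQ, with 19 of the 22 UMIs of IMQ replicate 2 in 1 cell. Csf2rb, the shared beta chain for IL-3, IL-5 and GM-CSF, was at 1.69 and 1.83 in Sham and 7.10 and 4.03 in IMQ, and its near-identical copy Csf2rb2 at 1.27 and 1.14 against 6.81 and 4.03. Reads of these copies may have been split between them. Il7r was at 0 and 2.06 in Sham and 11.5 and 3.66 in IMQ. The fifth was Kit, at 7.61 and 21.2 in Sham and 15.8 and 12.4 in IMQ (-0.02 ± 0.56).

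No granule gene passed. Of the 7 proteases tested, 4 belong to the rule. The others were Tpsab1, at 7.61 and 0.228 in Sham and 17.8 and 6.95 in IMQ, Tpsg1, at 4.23 and 5.71 against 3.33 and 4.03, and the granzyme Gzmb, at 0 and 0 against 2.75 and 0. Of 8 tested amine and proteoglycan genes, Tph1 was at 0 and 1.60 in Sham and 7.10 and 5.49 in IMQ, and Cd63, a membrane protein of granules, at 9.30 and 9.37 against 27.7 and 22.0. Hdc was at 37.2 and 22.2 against 59.9 and 27.4, with overlap of the groups. Srgn, the proteoglycan that holds the proteases, was at 52.8 and 36.6 against 56.4 and 38.1.

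Of 12 immediate early genes, 11 were tested and none passed. A negative log2 fold change was found for 9 of the 11, against 401 of all 698 genes, and the median was -0.75 against -0.12. Nr4a1, an orphan nuclear receptor, was at 13.5 and 11.0 in Sham and 2.90 and 2.56 in IMQ (-2.17 ± 0.49, adjusted p = 0.43 in edgeR). Egr1 was at 104 and 98.7 against 31.8 and 46.5 (-1.42 ± 0.43). For both genes the groups did not overlap, which for Nr4a1 was also a condition of the rule for named genes. None of the 5 tested genes of NF-kB feedback passed, with a median of -0.82, and Sham replicate 1 stood apart from the other libraries for Nfkbia, at 84.9 against 9.82, 10.4 and 16.5. Gem, Per1, Kdm6b, Mapre1 and Rps15 were the other named genes with negative values, from -2.87 to -1.55. Calm4, Dsp, Perp and Hspb1, genes of the epidermis, had the most negative values of those named. They were at 13.9 to 23.2 in Sham replicate 1 and at 0.228 to 0.685 in Sham replicate 2. The 5 keratinocyte markers together were at 161 UMIs per 10000 in the mast cells of Sham replicate 1 and at 1.06 to 5.75 in the other libraries, where Krt10 made up 320 of the 380 UMIs of Sham replicate 1. The part of these cells in the other values of Sham replicate 1 was not tested.

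**Figure D4:**
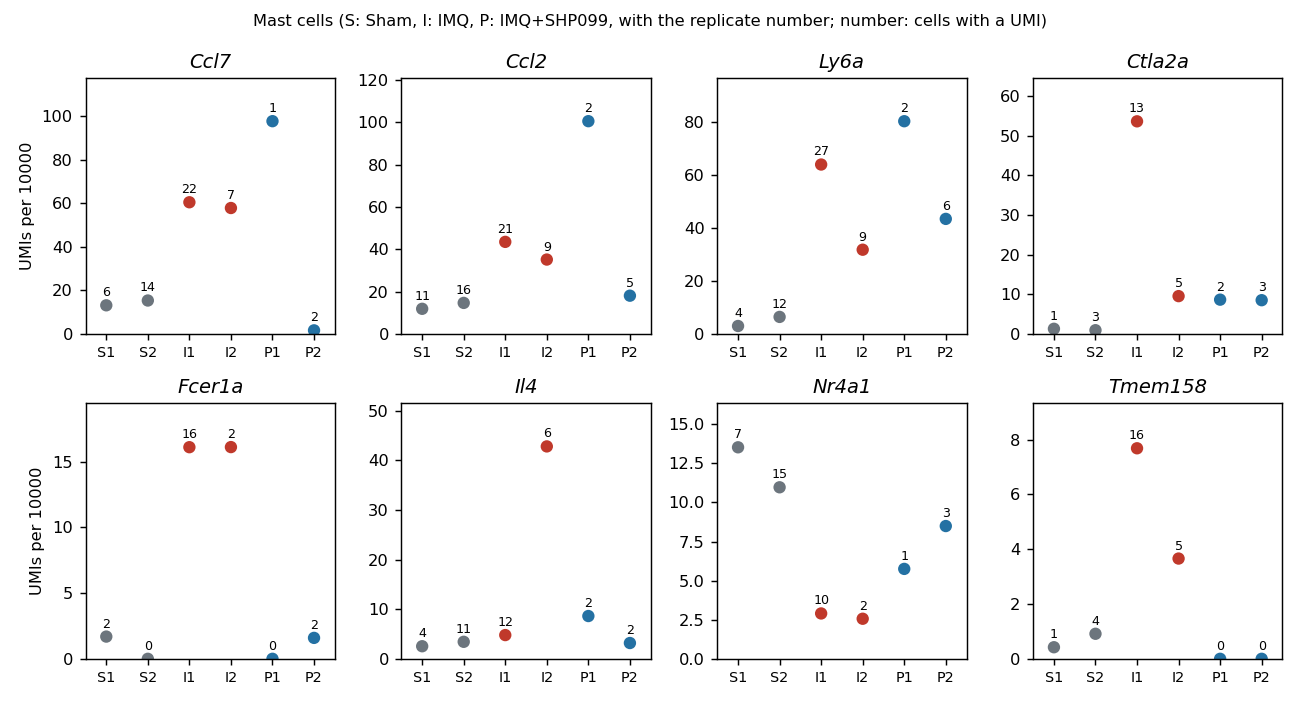
UMIs per 10000 of 8 genes in the summed mast cells of each library, with the number of cells that held a UMI above each point. Ccl7, Ccl2 and Ly6a were higher in both IMQ libraries than in both Sham libraries and Nr4a1 lower, while the IMQ replicate 2 point of Il4 (42.8) rested on 109 UMIs of 1 cell.

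For mast cells in IMQ+SHP099 against IMQ, only replicate 2 of IMQ+SHP099 (7 cells) entered the fit, because replicate 1 held 2 mast cells. No gene of the 698 passed an adjusted p of 0.05 (0%). At an unadjusted p of 0.05 edgeR gave 45 genes, 22 higher (3.15%) and 23 lower (3.3%), and DESeq2 called 1 gene, Ccl7. The library lay above both IMQ libraries for 38.3% of genes and below both for 40.1%. With 1 library on one side, that library is assumed to vary like the others.

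Ccl7, Ccl2 and Tnf were low in the library of the fit and high in the library outside it. Ccl7 was at 60.5 and 57.8 UMIs per 10000 in IMQ and at 1.59 in IMQ+SHP099 replicate 2 (-5.23 ± 0.79, adjusted p = 0.20 in edgeR), with 97.7 in replicate 1, all 34 UMIs from 1 cell. Ccl2 was at 43.5 and 35.1 in IMQ and at 101 and 18.0 in IMQ+SHP099. Tnf was at 9.86 and 4.03 in IMQ and at 11.5 and 0.531 in IMQ+SHP099. For all 3 chemokine and cytokine genes the IMQ+SHP099 replicates stood on opposite sides of the IMQ libraries.

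Tmem158 and Pla2g7, named above for IMQ, had no UMI in either IMQ+SHP099 library. For Tmem158 the 18848 UMIs of replicate 2 put the limit of a 0 at 1.59 per 10000, against 7.68 and 3.66 in IMQ. Mylip, Sla, Nedd4 and Dnajb9 also had no UMI in either, and Furin and Arl4a had 1 UMI each in replicate 1 and none in replicate 2. Replicate 1, at 3479 UMIs, has a limit of 8.62. Ly6a stayed at 80.5 and 43.5 in IMQ+SHP099, against 64.1 and 31.8 in IMQ (-0.21 ± 0.70). The IMQ+SHP099 libraries were both above the Sham libraries for this gene.

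The greatest positive values came from few cells. Gzmb was at 46.7, Gzma at 135 and Ccl4 at 24.4 in IMQ+SHP099 replicate 2. All 254 UMIs of Gzma there were in the 2 cells that held no marker but Cma1. Without such cells the fit again gave no call, with 18 genes at an unadjusted p of 0.05, a change made after seeing the data. Other named genes were Cd52, Tmsb4x, Tmsb10, Gadd45g and the ribosomal genes Rps28 and Rpl36, with log2 fold changes of 1.90 to 3.02. All 10 defining mast cell genes tested had negative values in this comparison (median -0.83), against 382 of all 698 genes (median -0.13), and none passed the threshold. The 7 cells of this library include the 2 with no marker but Cma1, which held no Kit, Ms4a2, Fcer1a, Cd200r3 or Hdc.

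Basophils of IMQ and Sham skin could not be fitted, because Sham replicate 1 held 0 and Sham replicate 2 held 3. The values of those 3 cells, 9308 UMIs in all, are set beside IMQ as a description. Il4 was at 0 in Sham, where the limit of a 0 is 3.22 per 10000, and at 43.6 and 21.7 in IMQ, in 16 of 21 and 12 of 13 cells. Ccl3 and Ccl4 were at 184 and 419 in Sham and at 269 and 177, and 214 and 294, in IMQ. The 3 Sham cells that the rule called basophils thus held these chemokines as well. Hdc was at 87.0 in Sham and 34.7 and 40.3 in IMQ, and Csf2rb at 38.7 against 5.58 and 6.77. Mcpt8 was at 3.22 in Sham and 86.4 and 96.8 in IMQ, and Cpa3 at 18.3 against 2.39 and 2.88, both genes of the rule. The 3 Sham cells held 9 marker UMIs at most, and whether they are basophils was not tested. In a fit with libraries of at least 2 cells, chosen after seeing the data, 5 of 266 genes passed, Slpi, S100a6, Ifitm2, Il4 and the rule gene Mcpt8, all higher in IMQ. All but Mcpt8 had no UMI in the 3 Sham cells. These genes other than Il4 are named after their values were seen.

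For basophils in IMQ+SHP099 against IMQ, the fit held 21 and 13 cells of IMQ and 5 cells of IMQ+SHP099 replicate 2, and replicate 1 (2 cells) is given beside it. Of 1013 genes tested with edgeR's quasi-likelihood test, 49 passed an adjusted p of 0.05 (4.84%), 11 higher (1.09%) and 38 lower (3.75%) in IMQ+SHP099, with 1 of the higher genes, Cpa3, in the rule. At an unadjusted p of 0.05 there were 42 higher (4.15%) and 112 lower (11.1%), and the IMQ+SHP099 library lay above both IMQ libraries for 43.8% of genes and below both for 39.8%. The call rests on 3 libraries with 1 residual degree of freedom, so the spread comes from the IMQ libraries alone and the single IMQ+SHP099 library is assumed to vary like them. It was 0 genes with another scaling (RLE size factors, smallest adjusted p = 0.05001) and 4 with DESeq2, Cxcl2, Cebpb and H3f3b lower and Ifi27l2a higher. Read with the library outside the fit, 24 of the 38 lower genes had both IMQ+SHP099 libraries below both IMQ libraries, against 23.4% of all genes tested, and 1 of the 11 higher genes had both above, against 12.6%. All genes tested are a loose base for this, because each called gene already had replicate 2 outside both IMQ libraries. Among all genes with replicate 2 below both IMQ libraries, 237 of 403 also had replicate 1 below both. On the higher side it was 128 of 444, and the 1 higher call was Cpa3, a gene of the rule. No support for the calls is read from these counts. The values below give the second library beside each call.

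Il4 and Il13 passed as lower in this fit, but neither passed with RLE size factors, Il4 did not with DESeq2, and DESeq2 gave Il13 no adjusted p. Il4, the signature cytokine of basophils, was at 43.6 and 21.7 UMIs per 10000 in IMQ, against 3.49 and 6.99 in IMQ+SHP099 (log2 fold change -2.40 ± 0.57, adjusted p = 0.0022 in edgeR). In the IMQ libraries 28 of 34 basophils held a UMI of Il4, with 187 of 383 UMIs of replicate 1 in 1 cell, and in IMQ+SHP099 5 of 7 held one. Its neighbour Il13, on chromosome 11 from 53631324 to 53634702, was at 4.21 and 5.25 in IMQ and had no UMI in IMQ+SHP099, where the limits of a 0 are 3.49 and 3.00 (adjusted p = 0.033, and 0.0130 to 0.157 over the alternatives that gave one). In 6 of 21 and 4 of 13 IMQ basophils Il13 was found, and 25 of 31 UMIs of replicate 2 were in 1 cell. For both genes the groups did not overlap, where replicate 2 of IMQ+SHP099 lay outside both IMQ libraries for every called gene. With libraries of at least 2 cells, Il4 had a log2 fold change of -2.54 ± 0.67 and an adjusted p of 0.060, and over the alternatives its adjusted p ran from 2.42e-08 to 0.157.

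Other secreted factors of the list did not move as one. Of 23 listed cytokines and chemokines 15 were tested. Their median log2 fold change was -0.92, against -0.19 over all genes tested. Cxcl2, a chemokine for neutrophils, was at 136 and 60.7 in IMQ and at 0 in IMQ+SHP099 replicate 2, but at 76.8 in replicate 1, where 1 cell held all 66 UMIs. With both libraries in the fit its adjusted p was 0.91, and over the alternatives it ran from 7.28e-40 to 0.911. Il1b was at 8.19 and 1.86 in IMQ and at 0 in both IMQ+SHP099 libraries. The level of replicate 2 of IMQ lies under both limits of a 0. Ccl3 was at 269 and 177 against 191 and 104, with overlap (-1.28 ± 0.37, adjusted p = 0.016). Ccl4 was at 214 and 294 against 364 and 153 (adjusted p = 0.13), and Ccl6 at 108 and 105 against 46.5 and 168 (adjusted p = 0.60). Il6 differed by less than its error, at 30.3 and 33.7 against 24.4 and 30.0 (-0.28 ± 0.44).

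Prss34 was also lower in this fit, at 16.3 and 13.2 in IMQ and at 0 and 1.997 in IMQ+SHP099 (-3.05 ± 0.80). It was found in 5 of 21 and 6 of 13 IMQ cells and 1 of 7 IMQ+SHP099 cells. It did not pass with RLE size factors, with DESeq2 or with libraries of at least 2 cells. One IMQ cell held 75 of the 143 UMIs of replicate 1. The rest of the basophil list did not pass. Fcer1a was at 6.37 and 6.26 in IMQ against 1.16 and 6.99 in IMQ+SHP099, Cd200r3 at 8.88 and 7.45 against 1.16 and 12.0, and Hdc at 34.7 and 40.3 against 26.8 and 66.9. Mcpt8, a gene of the rule, was at 86.4 and 96.8 against 26.8 and 70.9.

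Isg15, a ubiquitin-like protein induced by interferon, was at 19.0 and 21.5 in IMQ and at 2.33 and 0 in IMQ+SHP099, with a UMI in 22 of 34 and 1 of 7 cells (adjusted p = 2.41e-06 in edgeR, and 0.060 with libraries of at least 2 cells). Dnajb1, a co-chaperone of Hsp70, was at 20.5 and 30.8 against 5.82 and 0.998 (-4.83 ± 0.86, adjusted p = 5.73e-06). Klf2, a transcription factor named after its values were seen, was at 15.7 and 30.5 against 1.16 and 0.998 (-4.68 ± 0.87, adjusted p = 1.72e-05). The groups did not overlap for any of the 3 genes. Replicate 2 of IMQ+SHP099 lay outside both IMQ libraries for every called gene, so only replicate 1 (2 cells) could overlap. None of the 3 genes passed with RLE size factors or DESeq2. Cebpb, a transcription factor that DESeq2 called as well, was at 42.9 and 71.1 against 29.1 and 12.0 (-2.44 ± 0.51), again without overlap. Klf2 and Mt1 were the only calls when libraries of at least 2 cells entered, out of 266 genes. Mt1, which is named after its values were seen, was at 108 in IMQ+SHP099 replicate 1, with 92 of 93 UMIs in 1 cell, and at 1.997 in replicate 2.

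Of the other named genes that fell, Cks2, a partner of cyclin-dependent kinases, Glul, which makes glutamine, Chka, a choline kinase, and Rgcc had no UMI in either IMQ+SHP099 library and lay between 5.41 and 15.8 in IMQ. Rack1 and Slc25a5, an ADP/ATP carrier, were at 5.08 to 7.28 in IMQ and at 4.65 and 0 in IMQ+SHP099. Nr4a1 was at 5.01 and 5.25 in IMQ and at 8.15 and 0 in IMQ+SHP099, so its call rests on replicate 2. Of the 12 immediate early genes 11 were tested, with a median log2 fold change of -0.37, against -0.19 over all genes tested.

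The genes that rose in the fit were higher in replicate 2 of IMQ+SHP099 than in replicate 1 and in IMQ. Some were about as high or higher in the 3 Sham basophils. Hsp90aa1 was at 85.9, Clk1 and Gm12840 at 15.04 each and Ddx3x at 12.9, against 50.9, 9.98, 9.98 and 12.98 in replicate 2. Cxcr4 was lower in the Sham basophils, at 11.8 against 18.0 in replicate 2. Ifi27l2a, an interferon-induced gene, was at 0.569 and 1.18 in IMQ and at 0 and 16.97 in IMQ+SHP099 (4.11 ± 0.62, adjusted p = 2.23e-08), and 12 of its 17 UMIs were in 1 of 5 cells. Cxcr4, the receptor for Cxcl12, was at 3.19 and 3.72 in IMQ, against 3.49 and 18.0 in IMQ+SHP099 (2.19 ± 0.58, adjusted p = 0.0065). Hgf, a growth factor for epithelia, was at 5.69 and 2.54 against 1.16 and 22.0, in 5 of 5 cells of replicate 2. Actb was at 214 and 138 against 113 and 407. Inhba, a subunit of activin, Ddx3x, an RNA helicase, Clk1, Hcst, a signalling adaptor, Hsp90aa1 and Gm12840 had the same pattern, with log2 fold changes of 1.35 to 3.54. For all 10 of these genes replicate 1 lay within or below the IMQ libraries.

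The feedback genes of ERK, a pathway that SHP2 feeds, were thinly measured. In mast cells none of 10 was tested. In basophils 3 were tested and none passed, with Dusp6 at 2.85 and 3.22 in IMQ against 0 and 1.997 in IMQ+SHP099 and Dusp5 at 3.41 and 4.91 against 1.16 and 1.997. Spry2 was at 2.62 and 1.02 against 2.33 and 7.99 (1.89 ± 0.67, adjusted p = 0.082). Neutrophil markers, which together were at 106 to 282 UMIs per 10000 in the unselected cells of treated skin, were at 3.76 and 12.0 in IMQ basophils and at 5.82 and 11.0 in IMQ+SHP099 basophils. No Toll-like receptor gene passed the filter in either class.

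**Figure D5:**
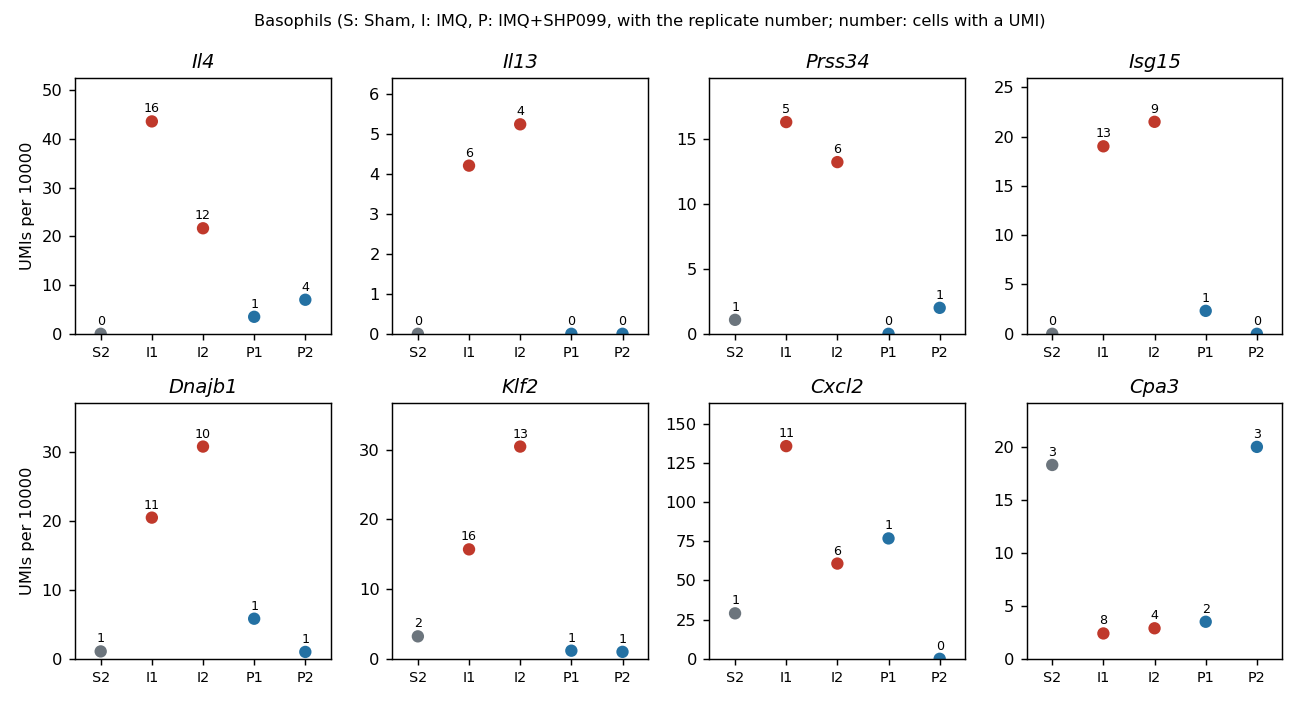
UMIs per 10000 of 8 genes in the summed basophils of the 5 libraries that held any, with the number of cells that held a UMI above each point. Il4, Il13, Prss34, Isg15, Dnajb1 and Klf2 sit lower in both IMQ+SHP099 libraries than in both IMQ libraries, while the IMQ+SHP099 points of Cxcl2 (76.8 and 0) lie on either side of IMQ replicate 2.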

How the data were processed

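For each of the 6 libraries of mouse back skin the authors deposited a matrix of whole UMI counts, with genes as rows and cell barcodes as columns. Their processing notes name Cell Ranger and the mouse genome mm10, and the deposited counts carry no normalization. The 55201 deposited barcodes were filtered as in the study's methods, which kept those with less than 100000 UMIs, 6500 genes and 10% mitochondrial UMIs (50850). Cells were then selected by the limits given at the opening. The study's integration and clusters were not used, and no doublets were removed. Counts were summed per library and class in Python 3.11.15 (NumPy 2.4.6, pandas 2.3.3), and libraries with at least 5 cells of a class were fitted with edgeR 4.0.16 in R 4.3.3 (quasi-likelihood, TMM scaling, filterByExpr, group as the only term, Benjamini-Hochberg adjustment). The fits held 5 libraries for mast cells and 3 for basophils. DESeq2 1.42.0 served as an alternative. Shares were compared with exact permutation tests in SciPy 1.17.1. The replicate number was not used as a block, since the labels do not say what it marks.

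Named genes were the 10 with the greatest log2 fold change in each direction among those whose fitted libraries did not overlap between groups, whose adjusted p was below 0.05 and whose mean reached 20 CPM. Where none passed, genes without overlap, with an unadjusted p below 0.05 and a mean of 50 CPM or more, were named as not passed. Genes of the selection rule and markers of other cell types were passed over, and listed genes that passed were added. A gene that this rule names is not reported here. Mast cells and basophils were described by the 15 genes with the greatest ratio on each side. The cells, gene lists and tests were chosen with earlier results of these data known. On simulated counts for mast cells in IMQ against Sham, a 4-fold change was called in 11.7% of 188 changed genes. A 16-fold change was called in 89.4% of 198, and there were 0 and 5 false calls. The simulation gave all genes the same spread, and 870 and 1169 genes were tested in it, against 698 in the data. These rates therefore need not hold for the real fit.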

Additional observations from a re-analysis of the deposited data

How the results depend on the processing

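The difference in the share of mast cells between IMQ and Sham had no stable sign. It was -0.0718 points without keratinocytes in the denominator, -0.104 over cells with Ptprc, -0.287 with the selected cells over cells with Ptprc (chosen after seeing the data), -0.0239 at a mitochondrial limit of 5%, and -0.118 to 0.136 when 1 library was left out. The 3 other differences in shares kept their sign under the settings run, but leaving out IMQ replicate 1 moved the mast cell difference of IMQ+SHP099 minus IMQ from -0.166 to -0.0382 points, that of basophils from -0.155 to -0.0809, and basophils in IMQ minus Sham from 0.182 to 0.108. Leaving out IMQ replicate 2 moved the mast cell difference to -0.293. No setting relaxed the keratin or collagen limit of the selection. Basophils as a percent of the selected cells kept their sign for IMQ minus Sham. For IMQ+SHP099 minus IMQ this percent ran from -10.7 to 2.08 points with 1 library left out and turned positive without IMQ replicate 2. It was -11.6 with at least 10 marker UMIs and -48.3 when cells were thinned to 2000 UMIs, where IMQ+SHP099 kept 1 basophil. The calls moved more. For mast cells in IMQ against Sham, 0 genes became 3 with DESeq2, 43 with no filter on low counts, and 0 to 90 with 1 library left out (90 without Sham replicate 2, 20 without IMQ replicate 2, 17 without IMQ replicate 1). For mast cells in IMQ+SHP099 against IMQ, 0 genes became 1 with DESeq2, 5 with no filter, 41 when Sham was left out of the fit, 5 when cells with other-type markers over 50 per 10000 were left out (chosen after seeing the data), and 0 to 40 with 1 library left out (40 without Sham replicate 2, 11 without IMQ replicate 1). For basophils 49 genes became 0 with RLE size factors, 4 with DESeq2, 101 with no filter, and 2 with libraries of at least 2 cells. All 25 named basophil genes missed the threshold with RLE. With DESeq2 15 missed it, 2 passed and 8 had no adjusted p. None changed sign under the settings that gave a value. The cause was not tested. With the replicate number as a block, mast cells gave 7 calls for IMQ against Sham and 8 for IMQ+SHP099 against IMQ. The differences between replicates 2 and 1 of IMQ and of Sham correlated at r = 0.17 over 545 genes, which are not independent, and the samples share only a number. The block, leaving out a library and the stricter limits on markers could not be fitted for basophils, and leaving out IMQ+SHP099 replicate 2 could not for mast cells in IMQ+SHP099. With 2 to 27 cells of a class in a library, the limit of a 0 ran from 0.435 to 8.62 UMIs per 10000 in mast cells and from 0.341 to 3.49 in basophils.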
